A study of Mus musculus with 24 samples.

Results

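Hepatokines are proteins that the liver secretes into the blood and that act on the liver itself or on other organs. Transcripts of 9 genes of this kind, or related to them, were followed in mouse liver: the fibroblast growth factor Fgf21 and the stress cytokine Gdf15, the angiopoietin-like genes Angptl4, Angptl6 and Angptl8, the fetuins Ahsg and Fetub, the chemotactic factor Lect2, and Enho, which encodes the peptide adropin. They were chosen by symbol among the 37074 gene names on the array, with earlier results of these data known. The symbols matched 9 probes of 8 genes. The array carries no probe named Angptl8, and its transcript was found through its RefSeq accession, which the array names Gm6484, so that 10 of 56605 probes represented the 9 genes. In mm9, the build of the array design, the probes of Fgf21, Gdf15 and Angptl4 lie at chr7:52869305-52869364, chr8:73153293-73153352 and chr17:33911880-33911939, those of Angptl6 and Angptl8 at chr9:20678326-20678385 and chr9:21641729-21641788, and that of Lect2 at chr13:56643950-56644009. The fetuin genes lie close together, with probes at chr16:22899415-22899474 for Ahsg and chr16:22939736-22939795 for Fetub, and the brighter Enho probe lies at chr4:41585245-41585304. Exon annotation of that build was not used here.

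The livers came from male C57Bl6J mice of the third generation of lineages bred on a supplemented diet. Reference mice (9 arrays, labelled STD_Cont) descended from the lineage given control fatty acid, as high-oleic sunflower oil, and ate a low-fat diet during the challenge. HFoleic mice (8 arrays, HFD_Cont) came from the same lineage and ate a high-fat, high-sucrose diet. HFepa mice (7 arrays, HFD_O3) ate that diet too and came from the n-3PUFA lineage, whose feed contained fish oil supplying mainly eicosapentaenoic acid (EPA). EPA-lineage mice on the low-fat diet were not analysed here, so HFepa differed from reference in both lineage and diet. The mice were killed during a fasting period, each array held the RNA of 1 liver, and the sources used here give neither the age of the mice nor which of them shared parents or litters.

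FGF21 is a hormone induced by fasting and by amino acid or mitochondrial stress, and it acts through FGF receptors together with beta-Klotho. GDF15 is a stress-induced cytokine sensed in the hindbrain through GFRAL. ANGPTL4 and ANGPTL8 take part in the control of lipoprotein lipase, the enzyme that releases fatty acids from circulating triglycerides: ANGPTL4 inhibits it and is raised by fasting, while ANGPTL8 is raised by feeding. Fetuin-A (Ahsg) and fetuin-B (Fetub) are abundant plasma glycoproteins of hepatocytes.

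All 10 probes were well above background on 24 of 24 arrays, none was saturated and none was marked as an outlier spot. Values are log2 signals after quantile normalization, and a difference was called where limma gave a Benjamini-Hochberg adjusted p under 0.05 over 30003 probes. A group contained between 7 and 9 arrays, and that number limits the precision. Across the series, 50.9% to 60.8% of the probes of an array were well above background, and arrays of a group correlated at 0.974 to 0.996, reference replicate 5 standing lowest in its group with a median r of 0.976. The hepatocyte markers had a summed log2 signal between 20.29 and 20.50 on all arrays, and their lowest value was in a reference mouse. Such a sum weighs the brightest markers most, and quantile normalization gives each rank a fixed value. Its narrow range therefore cannot show whether hepatocyte content was constant. Of the 9 tested, Tat was called in HFoleic against reference and fell by 0.63 (limma adjusted p = 0.00858). Among markers of other liver cells, the same comparison called 1 of 8 for Kupffer cells and macrophages (Itgam, 0.49, adjusted p = 0.0251), 1 of 7 for stellate cells and fibroblasts (Lrat, 0.56, adjusted p = 0.0015) and 1 of 4 for cholangiocytes (Sox9, -0.65, adjusted p = 0.0279). The summed log2 signals of these lists overlapped between the groups, at 14.16 to 15.78 in reference and 14.52 to 15.30 in HFoleic mice for the first, 13.998 to 15.74 and 14.17 to 14.80 for the second, and 10.45 to 13.40 and 10.79 to 11.42 for the third. None of the 6 endothelial, 6 blood and 5 exocrine pancreas markers tested was called in HFoleic against reference. Over all genes, 8.07% were called in HFoleic against reference. The part of these markers in the results was not tested. Values from whole liver cannot tell fewer cells of a type from less RNA per cell.

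In HFoleic livers, Gdf15 and Lect2 were higher and Fgf21 and Angptl4 lower than in reference livers, which made 4 of the 9 genes called. Of all 20192 genes compared by their brightest probe, 8.07% were called (4.52% higher and 3.55% lower). The other 5 genes were not called, although 6 of the 9 had an unadjusted p under 0.05, as 22.3% of all genes did. HFepa livers differed from reference livers in none of the 9 genes by limma, with 2 at an unadjusted p under 0.05 and 0 by the methods' t-test. Of all genes, 0.391% were called there and 14% had an unadjusted p under 0.05. Between HFepa and HFoleic livers the count was also 0, with 4 at an unadjusted p under 0.05 and 0 by the methods' t-test, where 0% of all genes were called and 9.96% had an unadjusted p under 0.05. These shares of all genes are by limma. The test of the methods called 0 probes of the whole array in both HFepa comparisons, and 1746 in HFoleic against reference. Its counts of 0 in the HFepa comparisons, here and for the lists below, therefore say nothing about the genes counted. In no comparison did any of the 9 genes have groups without overlap, a pattern seen in 0.579%, 0.134% and 0.139% of all genes for HFoleic against reference, HFepa against reference and HFepa against HFoleic.

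**Figure D1:**
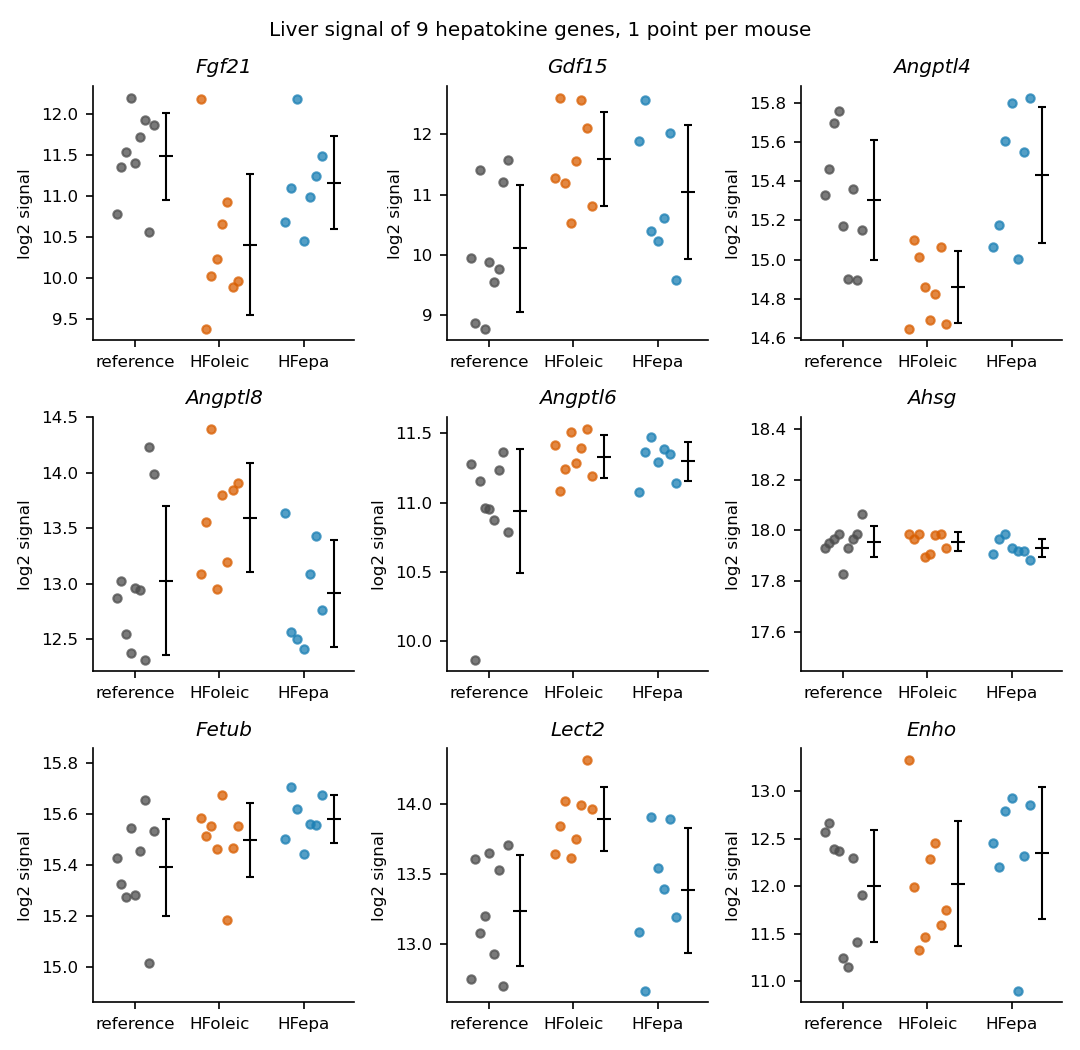
Log2 signal of each of the 9 genes in each mouse (y axis, log2 scale, 1 point per array), by group on the x axis (9 reference, 8 HFoleic and 7 HFepa mice), with the group mean and its SD as bars and every y axis spanning at least 1 log2 unit. For Lect2 the HFoleic mice lay between 13.62 and 14.32 and the reference mice between 12.70 and 13.71, and for Ahsg all mice lay between 17.83 and 18.06.

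Fgf21 was the gene of this set with the largest fall. In reference mice its log2 signal ran from 10.56 to 12.20 with a median of 11.53. In HFoleic mice it ran from 9.39 to 12.18 with a median of 10.14, and in HFepa mice from 10.45 to 12.18 with a median of 11.10. Of the 8 HFoleic mice, 5 lay below every reference mouse, while HFoleic replicate 3, at 12.18, lay within the top of the reference range, so the groups overlapped. The HFoleic mean was lower than the reference mean by 2.10-fold, a log2 difference of -1.07 (SE 0.30, 95% interval -1.69 to -0.45, limma adjusted p = 0.0296). Without HFoleic replicate 3 the log2 difference was -1.32 (adjusted p = 0.0043). The call was lost when reference replicate 1, 3, 6 or 9, or HFoleic replicate 1, 2, 6, 7 or 8, was left out (adjusted p 0.05 to 0.0707). Within the slides, each holding arrays of all groups, the differences were -0.75, -1.84 and -0.71. The HFepa mean, 11.16 ± 0.56 (SD, n = 7), lay between those of reference, 11.48 ± 0.53 (n = 9), and HFoleic, 10.41 ± 0.86 (n = 8). Neither neighbouring pair in that order differed beyond the test: HFepa against reference was -0.32 on the log2 scale (95% interval -0.96 to 0.33, limma adjusted p = 0.728) and HFepa against HFoleic was 0.75 (0.09 to 1.42, adjusted p = 0.441).

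Gdf15 moved the other way and was the most variable of the 9 genes. Its log2 signal ran from 8.77 to 11.57 in reference mice (median 9.88), from 10.52 to 12.61 in HFoleic mice (median 11.42) and from 9.58 to 12.58 in HFepa mice (median 10.62). The reference mice were split by a gap, 6 at 9.95 or below and 3 (replicates 5, 8 and 9) at 11.21 or above, and so were the HFepa mice, with 4 at 10.62 or below and 3 (replicates 4, 5 and 6) at 11.89 or above. No HFoleic mouse lay under 10.52. The mean was 2.78-fold higher in HFoleic than in reference livers, a log2 difference of 1.48 (SE 0.45, 95% interval 0.56 to 2.40, limma adjusted p = 0.0437). With the slide as a block the adjusted p was 0.0559, and the differences within slides were 2.19, 0.99 and 1.06. The call was also lost without reference replicate 1, 2, 3, 4, 6 or 7, HFoleic replicate 1, 2, 3, 4, 6 or 8, or HFepa replicate 7 (adjusted p 0.0501 to 0.0911), with log2 differences of 1.31 or more in all of these. HFepa against reference was 0.94 on the log2 scale, with an interval of -0.02 to 1.89 (limma adjusted p = 0.382), and HFepa against HFoleic was -0.54 (-1.52 to 0.44, adjusted p = 0.754). The latter ranged from -0.79 without HFepa replicate 4 to -0.29 without HFepa replicate 2, and was not called in either case.

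The stretches before the transcription starts of Fgf21, Gdf15 and Angptl8 are shown because they hold letters recognised by regulators for which target genes were also counted below. Sequences came from RefSeq (GRCm38.p6), which had entries for 7 of the 9 genes; Angptl4 and Enho had none. Each is the 250 bases upstream of a start, 5′ to 3′ on the strand of the gene, at chr7:45615491-45615740 (minus strand) for Fgf21, chr8:70632457-70632706 (minus strand) for the outer of the 2 Gdf15 starts and chr9:21835260-21835509 (plus strand) for Angptl8. Capitals mark matches to the motifs searched.
Fgf21: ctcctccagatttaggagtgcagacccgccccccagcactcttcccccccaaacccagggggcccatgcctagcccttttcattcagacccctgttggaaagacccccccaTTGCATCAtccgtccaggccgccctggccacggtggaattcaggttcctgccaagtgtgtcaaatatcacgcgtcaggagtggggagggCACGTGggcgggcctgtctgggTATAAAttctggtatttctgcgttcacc
Gdf15: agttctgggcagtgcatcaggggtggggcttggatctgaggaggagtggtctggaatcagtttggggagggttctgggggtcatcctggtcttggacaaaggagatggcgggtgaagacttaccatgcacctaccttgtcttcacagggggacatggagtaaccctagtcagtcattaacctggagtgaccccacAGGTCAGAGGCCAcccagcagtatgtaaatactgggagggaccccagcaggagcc
Angptl8: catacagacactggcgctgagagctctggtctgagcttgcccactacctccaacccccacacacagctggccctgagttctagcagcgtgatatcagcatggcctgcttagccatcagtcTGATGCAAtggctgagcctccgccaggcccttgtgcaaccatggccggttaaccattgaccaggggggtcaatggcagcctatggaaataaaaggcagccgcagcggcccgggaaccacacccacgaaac

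Both strands were searched for TGATGNAA, the composite element bound by ATF4, the transcription factor of the integrated stress response. It was found in 3.45% of 32851 promoter windows of that length and in 2 of the 7 genes: in Fgf21 on the opposite strand, 139 to 132 bases before the start, and in Angptl8 on the strand of the gene, 130 to 123 bases before it. CACGTG, the E-box core that reads the same on both strands, was found in 6.02% of windows, once in Fgf21 at 50 to 45 bases before the start and once before the inner Gdf15 start, at 83 to 78 bases. The direct repeat that PPARalpha binds with RXR, 2 copies of AGGNCA with 1 base between them, was found in 0.338% of windows and, here, 55 to 43 bases before the outer Gdf15 start. TATAAA, the TATA box core, was found in 12.4% of windows, at 28 to 23 bases before the Fgf21 start and 31 to 26 bases before 1 of the Fetub starts. TCACNCCAC, a sterol response element, was found in 1.05% of windows and in none of the 7 genes. None of these matches overlapped another, and a match describes the letters only.

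Angptl4 was lower in HFoleic livers. Its log2 signal ran from 14.90 to 15.76 in reference mice (median 15.33), from 14.65 to 15.10 in HFoleic mice (median 14.84) and from 15.003 to 15.83 in HFepa mice (median 15.55). All 8 HFoleic mice lay under the reference mean and 5 lay under every reference mouse. The difference was -0.44 on the log2 scale, 1.36-fold lower (SE 0.13, 95% interval -0.72 to -0.17, limma adjusted p = 0.0399). It was lost without reference replicate 1, 3, 6, 7 or 9, or HFoleic replicate 1, 2, 4, 6 or 8 (adjusted p 0.0569 to 0.08), and it was not called from the processed signal (adjusted p = 0.0767), while the slides gave -0.40, -0.52 and -0.38. HFepa livers had a mean of 15.43 ± 0.35 (SD, n = 7) against 15.30 ± 0.31 in reference livers (n = 9), a difference of 0.13 with an interval of -0.16 to 0.41 (limma adjusted p = 0.757). Against HFoleic, HFepa was 0.57 higher on the log2 scale, 1.49-fold, with all 7 HFepa mice above the HFoleic mean and 5 above every HFoleic mouse. That difference had an unadjusted p of 0.000442 and was not called (95% interval 0.28 to 0.86, limma adjusted p = 0.184). The comparisons share the HFoleic mice. By RT-qPCR of Angptl4, the paper reports higher levels in HFepa than in both other groups, each marked as significant. In that assay it marks no significant change for HFoleic against reference.

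Angptl4 is also expressed by adipocytes, and the summed log2 signal of the 6 adipocyte markers tested, of 7 listed, ran from 12.67 to 14.82 in reference, 11.27 to 14.18 in HFoleic and 11.45 to 13.50 in HFepa mice. Of these 6 markers, 4 had a lower and 2 a higher mean in HFoleic than in reference livers, and 5 were not called. Cidec, which encodes a lipid droplet protein, was the 1 called, lower in HFoleic (-1.72 on the log2 scale, limma adjusted p = 0.0243), and Adipoq did not pass the filter on dim probes. The part of these cells in the Angptl4 result was not tested.

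Angptl8 ran from 12.31 to 14.23 in reference mice (median 12.94), from 12.95 to 14.40 in HFoleic mice (median 13.68) and from 12.41 to 13.64 in HFepa mice (median 12.76). In the reference group, replicates 4 and 8 stood at 13.99 and 14.23, apart from the other 7 mice, which lay at 13.03 or below. The HFoleic mean was 0.56 above the reference mean on the log2 scale (95% interval 0.04 to 1.09, limma adjusted p = 0.198) and HFepa was 0.68 below HFoleic, at -0.68 (-1.24 to -0.12, adjusted p = 0.407), and neither was called. HFepa and reference were 0.12 apart, at -0.12 (-0.66 to 0.43, adjusted p = 0.907).

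Angptl6, a secreted member of the family also known as angiopoietin-related growth factor, ran from 9.87 to 11.36 in reference mice (median 10.96), from 11.08 to 11.53 in HFoleic mice (median 11.34) and from 11.08 to 11.47 in HFepa mice (median 11.35). Both high-fat groups were narrow and nearly level with each other, at -0.03 for HFepa against HFoleic on the log2 scale (95% interval -0.34 to 0.27, limma adjusted p = 0.969). Their log2 differences from reference were 0.39 for HFoleic (adjusted p = 0.0904) and 0.36 for HFepa (adjusted p = 0.267), both uncalled. Reference replicate 5, the lowest at 9.87, took part in both: without it they were 0.26 (adjusted p = 0.0712) and 0.22 (adjusted p = 0.293). Without reference replicate 8 the HFoleic difference was 0.44 and was called (adjusted p = 0.0427).

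Lect2, a hepatocyte protein that attracts neutrophils and is raised in fatty liver, was the gene of the set whose call held in every one of 36 alternative analyses. Its log2 signal ran from 12.70 to 13.71 in reference mice (median 13.20), from 13.62 to 14.32 in HFoleic mice (median 13.91) and from 12.67 to 13.91 in HFepa mice (median 13.39). All 8 HFoleic mice lay above the reference mean and 6 lay above every reference mouse. The mean was 1.58-fold higher in HFoleic than in reference livers, a log2 difference of 0.66 (SE 0.17, 95% interval 0.31 to 1.003, limma adjusted p = 0.0172). Adjusted p lay between 0.00595 and 0.0422 over the 36 alternatives, and the differences within slides were 0.50, 1.07 and 0.47. HFepa lay 0.14 above reference on the log2 scale (95% interval -0.22 to 0.50, limma adjusted p = 0.793), and its difference from HFoleic, -0.51 (-0.88 to -0.14, adjusted p = 0.33), was not called.

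Neither fetuin was called in any comparison. Ahsg ran from 17.83 to 18.06 in reference, 17.90 to 17.99 in HFoleic and 17.89 to 17.98 in HFepa mice, and its largest log2 difference between groups was -0.03 (HFepa against reference, 95% interval -0.11 to 0.05, limma adjusted p = 0.844). Between HFoleic and reference the interval was -0.08 to 0.08, or 0.947-fold to 1.05-fold. The Ahsg probe took ranks 17 to 33 of 30003 on the arrays, and quantile normalization gives each rank a fixed value, which limits how far its signal could differ. Fetub ran from 15.02 to 15.66 in reference, 15.18 to 15.68 in HFoleic and 15.44 to 15.71 in HFepa mice. It was 0.11 higher in HFoleic than in reference livers on the log2 scale (95% interval -0.05 to 0.26, limma adjusted p = 0.446) and 0.19 higher in HFepa (0.03 to 0.35, adjusted p = 0.275). All 7 HFepa mice lay above the reference mean for Fetub, and the HFepa difference was 0.14 without reference replicate 5, the lowest at 15.02.

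Enho was not called in any comparison either, and its values ran over a wide range in each group. By its brighter probe they ran from 11.15 to 12.67 in reference, 11.33 to 13.33 in HFoleic and 10.90 to 12.93 in HFepa mice. HFoleic against reference was 0.03 on the log2 scale (95% interval -0.58 to 0.63, limma adjusted p = 0.974). HFepa was 0.35 above reference (-0.28 to 0.98, adjusted p = 0.681) and 0.32 above HFoleic (-0.32 to 0.97, adjusted p = 0.781). Without HFepa replicate 4, whose value of 10.90 was far under the other HFepa mice, HFepa was 0.59 above reference (adjusted p = 0.369) and 0.57 above HFoleic (adjusted p = 0.427). Without HFoleic replicate 2, the highest at 13.33, HFepa was 0.51 above HFoleic (adjusted p = 0.63). The second probe overlaps the first and gave -0.01, 0.37 and 0.38 for the same comparisons in that order.

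**Figure D2:**
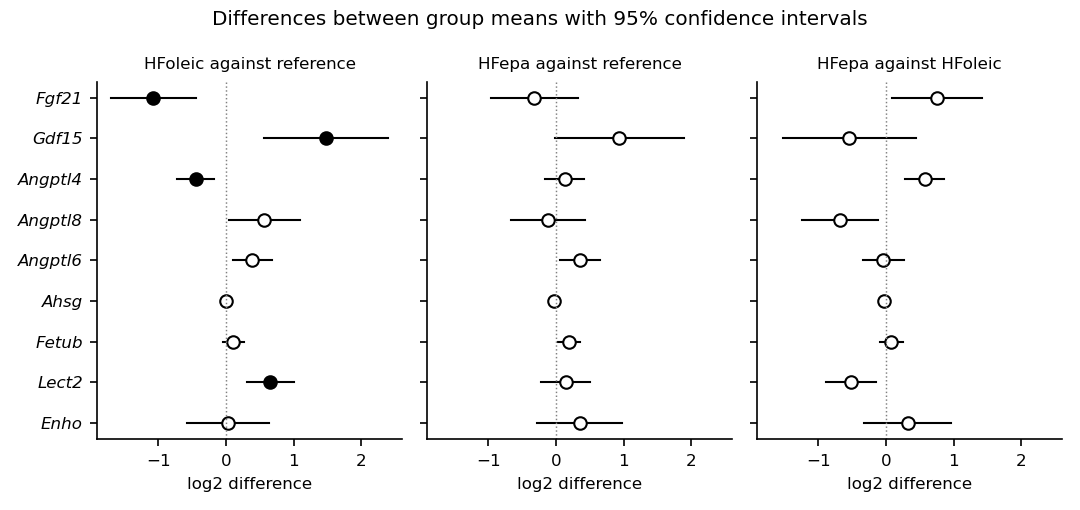
Log2 difference between group means (x axis) of the 9 genes (y axis) in the 3 comparisons, with 95% confidence intervals as lines and filled points for differences called at an adjusted p under 0.05. Filled points appear for HFoleic against reference alone, at -1.07 for Fgf21, 1.48 for Gdf15, -0.44 for Angptl4 and 0.66 for Lect2.

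The 9 genes were set beside all genes as a description only, since they were chosen with earlier results of these data known. The median size of the log2 difference over the 9 genes was 0.44 for HFoleic against reference, 0.19 for HFepa against reference and 0.51 for HFepa against HFoleic, and over all 20192 genes it was 0.098, 0.083 and 0.079. Spread between mice of a group was compared in the same way. The residual SD was 0.99 for Gdf15, above that of 99.6% of the tested genes, 0.67 for Fgf21 (98.4%), 0.65 for Enho (98.2%) and 0.56 for Angptl8 (97.1%), against a median of 0.18 over all genes. At the other end, Fetub had 0.15 and Ahsg 0.048, below nearly all genes (0.099% had less).

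Deviations of single mice from their group mean showed which genes varied together. Of the 36 pairs, 2 passed a permutation test within groups (adjusted over the 36 pairs, two-sided). No share for pairs of other genes is given beside this count, so it does not set these genes apart. Fgf21 and Angptl4 rose and fell together over the 24 mice, with Pearson r = 0.545 (permutation p = 0.00245, adjusted p = 0.0441) and Spearman rho = 0.617 (permutation p = 0.00176, adjusted p = 0.0457). The r was 0.692, 0.598 and 0.523 in reference, HFoleic and HFepa mice, and 0.558 without the 2 mice farthest from the median. Lect2 and Enho went in opposite directions, with r = -0.637 (permutation p = 0.00129, adjusted p = 0.0441), rho = -0.623 (permutation p = 0.00254, adjusted p = 0.0457), r within the groups of -0.683, -0.626 and -0.653, and r = -0.613 without the 2 farthest mice. The next pair, Angptl4 and Lect2, had r = -0.63 (permutation p = 0.00434, adjusted p = 0.0521), with rho = -0.585 (permutation p = 0.00842, adjusted p = 0.0926) and r = -0.63 without the 2 farthest mice. Fgf21 and Gdf15, both stress-induced hormones, had r = 0.0602 and were not called. Both calls were lost in 14 of the 24 leave-outs of 1 mouse: reference replicates 1, 2, 3, 6, 7, 8 and 9, HFoleic replicates 1, 2, 3 and 4, and HFepa replicates 3, 4 and 5. The other 10 leave-outs gave between 1 and 4 called pairs.

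**Figure D3:**
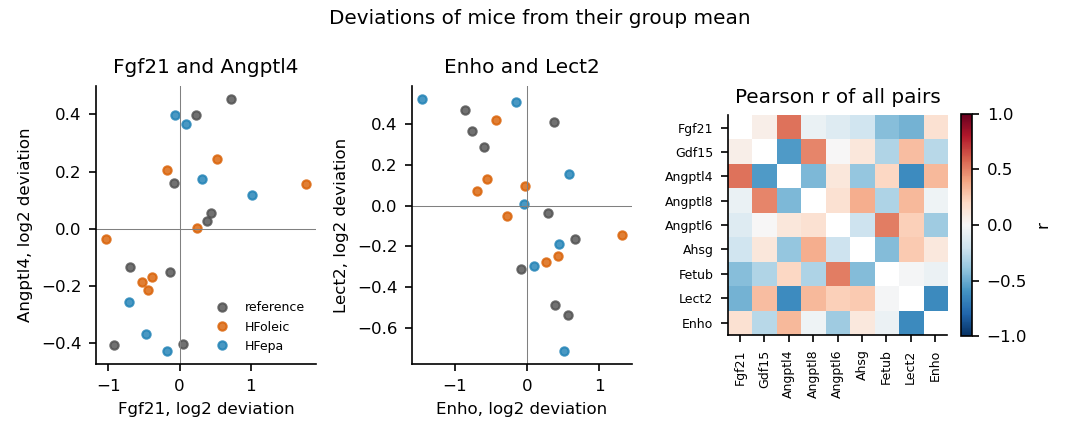
Deviation of each mouse from its group mean, in log2 units, for Fgf21 (x axis) and Angptl4 (y axis) and for Enho (x axis) and Lect2 (y axis), coloured by group, and the Pearson r of all 36 pairs as a colour map. The first pair rises together (r = 0.545 over 24 mice) and the second falls (r = -0.637).

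By Pearson r over all 24 arrays, group differences included, the genes most like Fgf21 were Slc25a47, a mitochondrial carrier of the liver (r = 0.888), Tor1b (0.88) and Plin5, a lipid droplet protein (0.871). Those most like Lect2 were Stra13 (r = 0.902), the transporter Slc47a1 (0.895) and the carbonic anhydrase Car3 (0.89). For Angptl4 they were Timm9, which helps import proteins into mitochondria (r = 0.898), a transcript without a symbol (0.888) and D030063E12 (0.875), and for Gdf15 the semaphorin receptor Plxna2 (0.814), the alcohol dehydrogenase Adh1 (0.802) and the complex I subunit Ndufb4 (0.799). Angptl8 was most like Svil (0.748), Carhsp1 (0.744) and Aldh7a1 (0.727). The likeness of Angptl6 to AV118365 (0.915), Galm (0.914) and Ces1f (0.906) leaned on reference replicate 5, without which r was 0.777, 0.789 and 0.711. Fetub was most like Proc, which encodes the anticoagulant protein C (0.81), Thap11 (0.796) and Tspan33 (0.793). Without reference replicate 5 these were 0.684, 0.678 and 0.679. Ahsg was most like Nr4a1 (0.71), Grk5 (0.699) and AW048141 (0.694). Without reference replicate 6, the mouse farthest from the Ahsg median, these were 0.689, 0.677 and 0.576. Enho was most like a transcript without a symbol (0.7), the array's feature NAP060474-1 (0.698) and Thoc6 (0.675). Without HFepa replicate 4, the mouse farthest from the Enho median, these were 0.63, 0.622 and 0.606. All of these describe 24 arrays that share their 3 groups, over 19047 genes compared.

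Receptors and partners of the 9 gene products were counted next. Of 15 listed genes 13 were tested, and limma called 0 in each comparison, with 5, 3 and 5 at an unadjusted p under 0.05 for HFoleic against reference, HFepa against reference and HFepa against HFoleic, and 0 by the methods' t-test. The median log2 differences were 0.01, 0.11 and 0.01, against -0.01, 0.00 and 0.01 over all genes. Over all genes, 8.07%, 0.391% and 0% were called in these comparisons, and 22.3%, 14% and 9.96% had an unadjusted p under 0.05. These shares are by limma, and the limma counts of the lists that follow stand beside them. Klb, which encodes beta-Klotho, the co-receptor of FGF21, was at -0.19 for HFoleic against reference (SE 0.10, adjusted p = 0.308), 0.12 for HFepa against reference (adjusted p = 0.672) and 0.31 for HFepa against HFoleic (adjusted p = 0.33). Fgfr4, the main FGF receptor of hepatocytes, was at 0.23 for HFoleic against reference (adjusted p = 0.0829). Lpl, the target of ANGPTL4, was at -0.74 there (SE 0.33, adjusted p = 0.197), and Gpr19, proposed as a receptor of adropin, at 0.25 (adjusted p = 0.0501).

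Of 22 other secreted liver factors 19 were tested, and 4 were called in HFoleic against reference, 2 in each direction, with a median of -0.02 on the log2 scale. Over all genes, 8.07% were called in that comparison. Manf, a secreted endoplasmic reticulum protein, was 1.26 higher (SE 0.25, adjusted p = 0.00403). Igfbp1 fell by 1.34 (SE 0.26, adjusted p = 0.00344), and Igfbp2 fell by 0.62. These both bind insulin-like growth factors. HFepa livers had 1 call against reference, Inhbb, an activin subunit, at 0.84 (SE 0.17, adjusted p = 0.0282), and 0 against HFoleic, with 5 at an unadjusted p under 0.05 and 0 by the methods' t-test.

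Fgf21 and Angptl4 are textbook targets of PPARalpha, the fatty acid receptor that drives fat oxidation in fasting liver. Of 18 other PPARalpha targets, all tested, 4 were called lower and 0 higher in HFoleic than in reference livers, with a median of -0.11 on the log2 scale, and 14 were not called. By their means, 11 of the 18 were lower and 7 higher. Over all genes, 3.55% were called lower and 4.52% higher in that comparison. Ehhadh, of peroxisomal beta-oxidation, fell by 1.12 (SE 0.27, adjusted p = 0.0121), and the fatty acid hydroxylases Cyp4a14 and Cyp4a10 fell by 0.71 (SE 0.11, adjusted p = 0.000718) and 0.58 (SE 0.17, adjusted p = 0.0352). The fourth was Cpt1a, which admits fatty acids to mitochondria and fell by 0.43. In HFepa livers none was called against reference (2 at an unadjusted p under 0.05) or against HFoleic (6), nor by the methods' t-test.

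Fgf21 and Gdf15 are both targets of the integrated stress response, in which ATF4 is translated under amino acid or endoplasmic reticulum stress. Of 20 other targets 18 were tested, and in HFoleic against reference 2 were called higher and 3 lower, with a median of -0.10 on the log2 scale. By their means, 6 were higher and 12 lower. Over all genes, 4.52% were called higher and 3.55% lower in that comparison. Asns, asparagine synthetase, fell by 1.67 (SE 0.38, adjusted p = 0.00882) and Cth, of cysteine synthesis, by 0.80, while Chac1, which degrades glutathione, was 1.26 higher (SE 0.26, adjusted p = 0.00535) and Vldlr, a lipoprotein receptor, 0.83 higher. Atf5, a transcription factor, fell by 0.37. Neither HFepa comparison gave a call by limma or the methods' t-test, with 4 against reference and 3 against HFoleic at an unadjusted p under 0.05.

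Angptl8 is induced by insulin and by the lipogenic factors SREBP-1c, ChREBP and LXR. Of 17 other lipogenic and LXR target genes 16 were tested, and in HFoleic against reference 3 were called higher and 1 lower, with a median of 0.13 on the log2 scale. By their means, 9 were higher and 7 lower. Over all genes, 4.52% were called higher and 3.55% lower in that comparison. Srebf1, which encodes SREBP-1, was 1.02 higher (SE 0.22, adjusted p = 0.00552) and Mlxipl, which encodes ChREBP, 0.55 higher. Acacb, an acetyl-CoA carboxylase, fell by 0.78 (SE 0.21, adjusted p = 0.0225). In HFepa livers Mlxipl was the 1 gene called against reference, at 0.44 (SE 0.10, adjusted p = 0.0458), and 0 were called against HFoleic, with 5 at an unadjusted p under 0.05 and 0 by the methods' t-test.

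**Figure D4:**
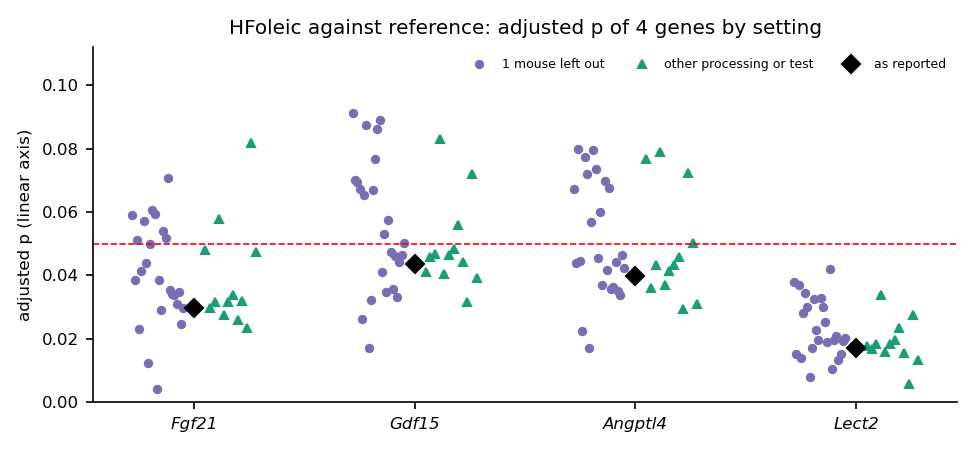
Adjusted p (y axis, linear) of the 4 genes called in HFoleic against reference (x axis), as reported (diamonds), with 1 of the 24 mice left out (circles) and under 12 other processing choices or tests (triangles), with the 0.05 threshold as a dashed line. Lect2 stays below the line at every point (0.00595 to 0.0422), while Fgf21, Gdf15 and Angptl4 have points on both sides.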

How the data were processed

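Liver RNA of 24 mice was labelled with Cy3 and hybridised to Agilent mouse 8x60K arrays. The authors' scanner files, written per the labels with Agilent Feature Extraction 10.10.1.1, hold raw spot intensity and marks for background, saturation and outliers, deposited as other values of 0 or 1. The authors also deposited a log2 table, which they filtered and quantile normalized; the filter is not given in the sources used here. Log2 was taken of the median intensity of each spot, outlier spots were left out, and the log2 values of a probe were averaged. Probes were kept where well above background on 75% of the arrays of at least 1 group. Arrays were then quantile normalized (R 4.3.3, limma 3.58.1). The authors' table correlated with these values at 0.99988 or more for each of the 10 probes.

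A limma group-means model (lmFit, eBayes) on 24 arrays gave the comparisons, with Benjamini-Hochberg adjustment over 30003 probes in each. A gene stood for its brightest tested probe. Pairs of genes were tested on deviations from group means with 100000 permutations within groups. The named genes were the 9 chosen ones, the 3 most correlated with each, and, of each list, the called genes with the largest changes; Cpt1a, Igfbp2, Cth, Atf5, Mlxipl in HFoleic, Cidec, Adipoq, Tat, Itgam, Lrat, Sox9 and the receptors given were named outside that rule after their values were seen. Some genes of the lists are counted but not reported here by name. The genes and lists were chosen with earlier results of these data known. The model was tested on simulated data. Alternatives were the processed signal scaled to the 75th percentile, normexp (offset 50), the authors' table, other filters, averaged probes, outliers kept, slide, slide row and replicate number as blocks, the methods' t-test, 2 groups per fit, and leaving out each array. Labels name separate mice, and p-values measure the spread between them. Promoter sequences were read from RefSeq GRCm38.p6, a build other than the mm9 of the array design, and no probe coordinates were set against them.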

Additional observations from a re-analysis of the deposited data

Results flagged for a closer look

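In 4 of 30 sets of a probe and a group, 1 mouse stood far from the others of its group by Dixon's criterion, which chance meets in about 1 of 20 sets. Angptl6 in reference replicate 5 was 9.8675 on the log2 scale, with the nearest mouse at 10.7871. Fetub in HFoleic replicate 3 was 15.1836, with the nearest at 15.4642, and the same mouse had the highest Fgf21 value of its group, 12.18. Enho in HFepa replicate 4 was 10.8969 by the brighter probe (nearest 12.1994) and 10.4505 by the other, overlapping probe (nearest 11.7368). This mouse also had the highest Gdf15 and Lect2 values of its group, 12.58 and 13.91.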

How the results depend on the processing

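For HFoleic against reference, the number of the 9 genes called, 4, was 1 (Lect2) without the filter on dim probes and 1 by the methods' t-test, and 3 or 4 under the other 10 alternatives. Leaving out 1 mouse gave between 1 and 5: it was 1 without reference replicate 1, 3 or 6 or HFoleic replicate 1, 2, 6 or 8, and 2 without reference replicate 7 or 9 or HFoleic replicate 4. Without the filter, adjusted p was 0.0578 for Fgf21, 0.083 for Gdf15 and 0.0788 for Angptl4, and by the methods' t-test 0.0816, 0.072 and 0.0501. The test of the methods did not reproduce marks of significance after correction that the paper gives. They include the mark of Angptl4 in HFoleic against reference. In HFepa against reference, where that test called 0 probes, they are those of Agpat6, Chrebp (Mlxipl), Dnajb1, Hspb1 and Sdc1. In both HFepa comparisons 0 of the 9 genes were called under each of the 36 alternatives, of which the test of the methods called 0 probes of the whole array there. The count of called pairs, 2, was 1 from the processed signal and between 0 and 4 with 1 mouse left out, 0 in 14 of the 24 leave-outs.

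Differences near 0 changed sign: Ahsg in HFoleic against reference was 0.01256 from the processed signal and 0.001674 with normexp, and it ranged from -0.01696 to 0.01238 with 1 mouse left out. Over the same leave-outs Enho ranged from -0.1603 to 0.1257, Angptl8 in HFepa against reference from -0.2361 to 0.03454 and Angptl6 in HFepa against HFoleic from -0.06944 to 0.002561. The cause was not tested.

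The labels do not say whether replicate numbers pair the mice. Correlations of same-numbered deviations ran from -0.302 to 0.349, with 2 of 8, 3 of 7 and 0 of 7 pairs above 0.1 for HFoleic against reference, HFepa against reference and HFepa against HFoleic. No correlations of differently numbered mice are given beside them, so they cannot exclude a pairing. With the replicate block, 3 genes were called in HFoleic against reference (Angptl4 had an adjusted p of 0.0724) and 0 in the others, and Ahsg was 3.587e-05, Enho -0.04729 and, in HFepa against HFoleic, Angptl6 0.01321. Signal over background did not limit these probes, and 7 to 9 mice per group did limit the precision.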
